A study of Mus musculus with 3 samples.

Results

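Osteocalcin and the other Gla proteins were followed through 6 genes, Bglap, Bglap2, Mgp, Gas6, Ggcx and Vkorc1, among the 21446 gene identifiers that the 3 libraries shared. The genes were taken by symbol and joined by identifier, and all 6 were found in each library. Cells carrying the Pthrp-mCherry knock-in allele were sorted by fluorescence from pooled mandibular molars of mice at P15, P25 and 8 weeks of age, and each time point was a single 10x Chromium 3' library. All groups thus shared the knock-in allele and the sort, and cells came from pooled animals of both sexes on a C57BL/6 background. With no second library at any age, differences between time points were not tested. Where 3 values stand in a row, they follow age: P15, then P25, then 8 weeks.

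Gla proteins are secreted proteins in which chosen glutamate residues are turned into gamma-carboxyglutamate, a residue that binds calcium. The carboxylase Ggcx makes this change in the endoplasmic reticulum with reduced vitamin K as its cofactor, and Vkorc1 restores the vitamin K that the reaction oxidizes. Osteocalcin, the product of Bglap and Bglap2, binds hydroxyapatite and is a product of mature osteoblasts, odontoblasts and cementoblasts. Matrix Gla protein, the product of Mgp, is known as an inhibitor of calcification in cartilage and in the arterial wall, while Gas6 is a ligand of the receptor tyrosine kinases Tyro3, Axl and Mertk.

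Bglap lies on chromosome 3 of GRCm38 from 88383501 to 88384464 on the minus strand, and Bglap2 on the same strand from 88377736 to 88378699. Both coding sequences are 288 bases long and differ at 4 of these bases (98.6% identity). They are shown because this likeness sets how far the counts of the genes can be told apart. The capitals mark the bases that differ, and the sequences come from the GENCODE M21 transcripts, written 5′ to 3′ from the start codon to the stop codon.
Bglap: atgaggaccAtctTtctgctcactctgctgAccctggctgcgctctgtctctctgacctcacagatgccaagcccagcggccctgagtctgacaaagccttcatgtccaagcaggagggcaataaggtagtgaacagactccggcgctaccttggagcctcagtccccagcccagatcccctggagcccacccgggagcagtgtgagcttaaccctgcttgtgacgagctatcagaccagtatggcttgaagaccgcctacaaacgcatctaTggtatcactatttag
Bglap2: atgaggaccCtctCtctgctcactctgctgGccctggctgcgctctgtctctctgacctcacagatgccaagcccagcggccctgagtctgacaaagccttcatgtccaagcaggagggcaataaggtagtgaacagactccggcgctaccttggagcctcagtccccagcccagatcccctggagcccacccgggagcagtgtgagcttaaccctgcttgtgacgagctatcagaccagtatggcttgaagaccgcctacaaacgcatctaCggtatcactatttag
The capitals stand near the start codon, with a single one close to the stop codon. Over the last 300 bases of the transcripts, where 3' libraries draw most of their reads, the genes differed at 1 base, and the longest stretch shared without a difference ran over 241 bases. Of the 351 windows of 90 bases in the Bglap transcript, 60.4% were also found in Bglap2. Bglap3, another gene of the cluster from 88368616 to 88372743, was 95.5% identical to Bglap in its coding part and shared none of these windows with it (0 of 351). How reads that match both genes were counted is not given in the sources used here. The split of UMIs between Bglap and Bglap2 is therefore uncertain, and Bglap2 is not an independent measurement of the pattern of Bglap.

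The remaining members lie apart from this cluster and from each other. Mgp lies on chromosome 6 from 136872435 to 136875823 on the minus strand, and Ggcx on the same chromosome from 72414308 to 72430712 on the plus strand. Gas6 lies on chromosome 8 from 13465374 to 13494490 and Vkorc1 on chromosome 7 from 127893063 to 127895617, both on the minus strand.

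The libraries held from 5192 to 12926 cells, with a median of 8712.5 to 15834 unique molecular identifiers (UMIs) per cell, lowest at 8 weeks. Between 13 and 26 cell barcodes were shared by a pair of libraries. Cells were placed in classes by the UMIs of 6 gate genes, which are not reported as results. A cell was Ptprc-positive, that is immune-type, with at least 2 UMIs of Ptprc. For the other gates, a cell needed at least 2 UMIs and a number of UMIs per 10000 that at most 2% of the Ptprc-positive cells reached, which came to 128 for Ibsp, 3 for Ifitm5, and 1 for Hand2, Rgs5 and Pappa2. The gate of Ibsp, a sialoprotein of mineralizing matrix, was passed by 943, 1124 and 817 cells, and that of Ifitm5, a membrane protein of mineralizing osteoblasts, by 485, 738 and 257. Hand2, a transcription factor of the developing mandible, was passed by 287, 1117 and 824 cells. Rgs5, a marker of pericytes and smooth muscle, was passed by 623, 240 and 312 cells, and Pappa2, a protease that cleaves an IGF binding protein, by 686, 45 and 29. As many cells passed more than 1 gate, they were put into classes that exclude each other. The Ifitm5 class held 455, 716 and 231 cells with Ifitm5, whether or not they passed Ibsp or Hand2, and 50.3%, 29.2% and 50.2% of them passed Ibsp. The Ibsp class (600, 513 and 342 cells) passed Ibsp alone, the Hand2 class (236, 715 and 477) Hand2 alone, and a further class (17, 375 and 326) both of these. The Rgs5 class (481, 199 and 266), the Pappa2 class (604, 33 and 16) and the Ptprc class (817, 209 and 19) passed their own gate alone. Another 193, 61 and 58 cells passed other sets of gates, and 9523, 6150 and 3457 cells passed none.

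The marker lists of the labelled cell types were checked in these classes. All 5 genes of the cementoblast list (Ibsp, Dmp1, Enpp1, Pthlh and Col1a1) were detected in the Ibsp and Ifitm5 classes, as they were in the Hand2 and Rgs5 classes. Without the gate gene Ibsp, the list summed to 24242, 67946 and 41657 UMIs per 1000000 (CPM) in the Ifitm5 class and 9652, 15696 and 16489 CPM in the Hand2 class. The Ibsp class held 16840, 14632 and 12801 CPM, above the Hand2 class at P15 and below it at P25 and 8 weeks. In the Pappa2 class the sum was 31357, 22285 and 11865 CPM, at P15 above that of the Ifitm5 class. Ungated cells held 10361, 18975 and 15118 CPM, above the Ibsp class at P25 and 8 weeks. This sum cannot decide whether the label of cementoblasts holds for the Ibsp class. Such a sum can rest mostly on Col1a1. In cells of P15 that passed no gate, outside those highest in Bglap, Col1a1 held 9971 CPM and Dmp1 3.08 CPM. The sum therefore does not speak for Dmp1, Enpp1 or Pthlh, whose levels in the Ibsp class are not given here. Without Ptprc, the other 4 genes of the immune list summed to 5.03 to 77.6 CPM in the Ibsp and Ifitm5 classes and to 10124 to 25079 CPM in the Ptprc class. All 4 genes of the mural list (Rgs5, Notch3, Acta2 and Pdgfrb) were detected in the Rgs5 class, as they were in the Ibsp, Ifitm5, Hand2 and Pappa2 classes. Without Rgs5 itself they summed to 1170, 294 and 411 CPM in the Rgs5 class, where the Hand2 class ranged from 155 to 172 CPM. The Pappa2 class held 276, 259 and 413 CPM, so that at 8 weeks the Rgs5 class did not exceed it. Of the cells in the Rgs5 class, 183, 4 and 0 held at least 20 Rgs5 UMIs per 10000. The 183 cells of P15 held 623 CPM of Notch3 and the other 298 cells of that class 57.3 CPM, against 30.9 CPM in the 195 such cells of P25 and 10.1 CPM in the 266 of 8 weeks. The Rgs5 class is therefore named by its gate only.

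Bglap and Mgp stood at opposite ends of these classes. Bglap was highest in the Ifitm5 class in each library and low in cells that passed the Hand2 gate. Mgp was low in the classes with Ibsp or Ifitm5, highest in the Rgs5 class at P15 and highest in the Pappa2 class at P25 and 8 weeks. As this pattern was the reason the genes were set side by side, their levels are given as a description without a test. Levels are sums of UMIs over the cells of a class, scaled to CPM by the same sum, with 95% Poisson intervals that cover counting error only. Levels in the Ptprc class are given beside them for reference. They were not a floor, since the Ifitm5 class fell below them in Mgp at P15 and P25. The part of free RNA in them was not tested.

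In the Ifitm5 class, Bglap reached 8727, 15459 and 27775 CPM. Of the Bglap UMIs of this class, 10 cells held 47.4%, 19.1% and 31.0%, and the rest gave 4799, 12910 and 20790 CPM. In the Ibsp class Bglap held 3048, 1972 and 2702 CPM, so that the Ifitm5 class was the higher of the pair in each library. Without its own 10 highest cells, the Ibsp class gave 2706, 1460 and 1033 CPM. Cells of the Hand2 class held 35.2, 222.7 and 141.9 CPM, and cells with both Ibsp and Hand2 held 13.3, 47.5 and 176.6 CPM. The Ptprc class gave 108.6, 71.0 and 154.8 CPM. The Hand2 level thus lay below that of the Ptprc class at P15, above it at P25 and within its interval (106.6 to 217.5 CPM) at 8 weeks. At P25, 10 of the 715 Hand2 cells held 85.4% of the Bglap UMIs of the class, and the remaining cells gave 33.3 CPM. The highest cells of the Ptprc class were not left out, so that this value is not set against its level. Bglap was 41.5-fold higher in the Ibsp class than in cells with both Ibsp and Hand2 at P25 (interval 36.5 to 47.3) and 15.3-fold higher at 8 weeks (14.1 to 16.7). At 8 weeks, 10 of the 342 Ibsp cells held 63.6% of the Bglap UMIs of the class, and the rest gave 1033 CPM. The Rgs5 and ungated cells lay between the Hand2 and Ifitm5 classes in each library, with 362 to 2332 CPM and 313 to 3445 CPM. At 8 weeks the ungated cells, with 3445 CPM, stood above the Ibsp class. Without the 10 highest cells of each, the Ibsp class (1033 CPM) then lay below the Rgs5 class (1148 CPM) and ungated cells (2845 CPM). At P25 the Rgs5 level rested on few cells, since 10 of 199 held 84.8% of the UMIs and the rest gave 151 CPM. Of the 6150 ungated cells at P25, 10 held 50.1% of the UMIs, and the rest gave 403.7 CPM. The Pappa2 class held 657 CPM at P15. Its 327 CPM at P25 came almost wholly from 10 of 33 cells (98.9% of the UMIs, with 5.15 CPM in the rest), and its 16 cells at 8 weeks gave 135.7 CPM.

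Mgp ran the other way. In the Hand2 class it held 345.9, 102.3 and 256.0 CPM, against 170.6, 58.0 and 4.69 CPM in the Ptprc class, the last of which was 1 UMI. In the Hand2 class, 10 cells held 59.7%, 59.7% and 64.4% of the Mgp UMIs, and the rest gave 145.0, 42.3 and 93.1 CPM. These values are not set against the Ptprc class, whose own highest cells were not left out. At P25, the Mgp UMIs of the Ptprc class lay in 17 of its 209 cells. In the Ifitm5 class Mgp held 67.8, 5.56 and 6.67 CPM, and in the Ibsp class 100.8, 37.9 and 8.59 CPM. At P15 and P25 both classes therefore lay below the level of the Ptprc class, and at 8 weeks within its interval (0.119 to 26.1 CPM). A handful of cells carried even these levels, since 10 of the 600 Ibsp cells at P15 held 88.0% of the Mgp UMIs of their class and the rest gave 12.35 CPM. The Pappa2 class held 455, 825 and 814 CPM, although with 33 cells at P25 and 16 at 8 weeks, and 10 cells held 96.8% of its UMIs at P25. The Rgs5 class spanned the widest range in CPM, with 4085, 267.7 and 147.2 CPM.

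**Figure D1:**
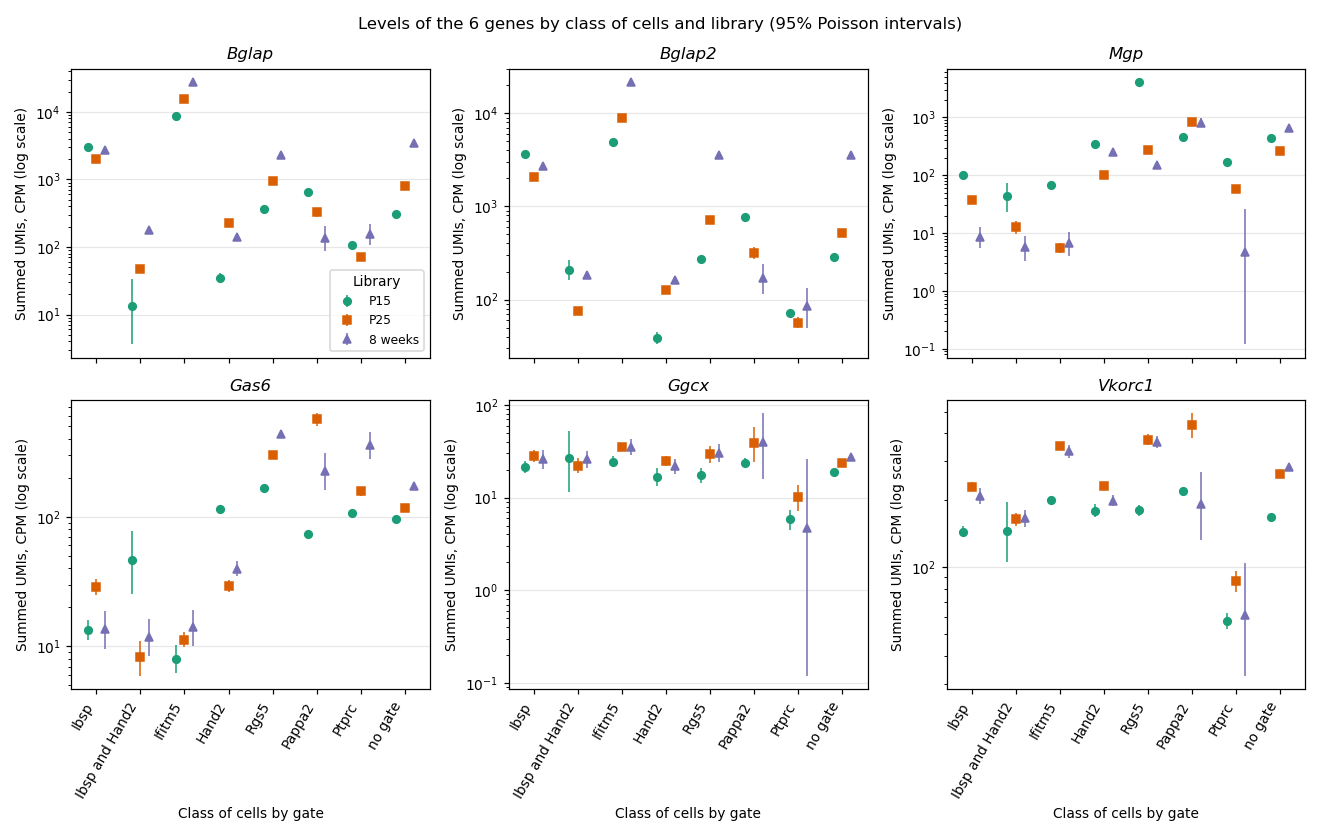
Level of each of the 6 genes (CPM of summed UMIs, log scale) by class of cells, with a symbol for each library and 95% Poisson intervals. Bglap and Bglap2 peak in the Ifitm5 class at every time point, Mgp is low in the classes with Ibsp or Ifitm5 (5.56 to 100.8 CPM in the Ibsp and Ifitm5 classes), and Ggcx and Vkorc1 vary little outside the Ptprc class.

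As log2 ratios, the Ifitm5 class exceeded the Hand2 class in Bglap by 7.96, 6.12 and 7.61, a mean of 7.23 ± 0.98 (SD, n = 3 libraries). For Mgp the same log2 ratios were -2.35, -4.20 and -5.26, a mean of -3.94 ± 1.47 (SD, n = 3 libraries). The signs were opposite in each library, which is the pattern the genes were chosen for and so no further evidence of it. With the 10 highest cells of each class left out for each gene, the log2 ratios were 8.11, 8.60 and 7.52 for Bglap and -3.72, -4.37 and -5.19 for Mgp. The Ibsp class against the Hand2 class gave mean log2 ratios of 4.61 ± 1.67 for Bglap and -2.70 ± 1.91 for Mgp (SD, n = 3 libraries). The Mgp level of the Ifitm5 class did not exceed that of the Ptprc class beyond counting error. How far free RNA sets the size of its ratio was not tested. With gates that 5% of the Ptprc-positive cells could pass, the Mgp log2 ratio of Ifitm5 to Hand2 was -2.13.

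**Figure D2:**
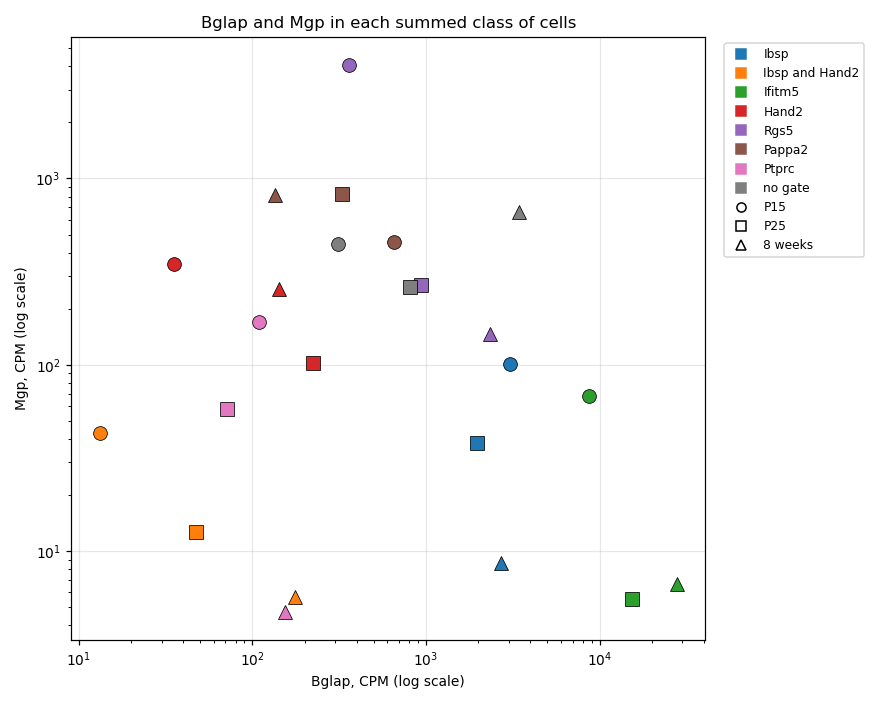
Bglap against Mgp (CPM, both axes on log scales) in each summed class, with color for the class and shape for the library. The Ifitm5 sums (8727 to 27775 CPM of Bglap) lie at the lower right and the Rgs5 sum of P15 (4085 CPM of Mgp) at the top, while cells with both Ibsp and Hand2 and Ptprc cells lie low on both axes.

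Classes low in both genes were also found. Over 18 sums of a class and library, the correlation of Bglap with Mgp on the log2(CPM + 10) scale was -0.357 (Pearson, as a description, since the sums share libraries and depth). Cells with both Ibsp and Hand2 were low in Bglap (47.5 CPM) and in Mgp (12.7 CPM) at P25. The genes whose pattern was most like that of Bglap over these sums, among genes of at least 50 CPM in a sum, were Bglap2 (r = 0.988), Bglap3 (0.960), Itga10 (0.925), Ptgis (0.915) and Kcnma1 (0.913). Itga10 encodes an integrin subunit for collagen and Ptgis the prostacyclin synthase. The genes most like Mgp were Arhgap6 (0.918), Ebf1 (0.889), Gm1673 (0.879), Cygb (0.874) and Arhgap29 (0.871), of which Ebf1 is a transcription factor of B cells and stromal cells.

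Within single cells, Bglap and Mgp were also counted together. Each cell was thinned to 3000 UMIs, and shallower cells were left out. In the Ifitm5 class, 82.1% of 447 cells, 82.7% of 705 and 94.1% of 220 had a Bglap UMI and no Mgp UMI. Cells with both were 3.58%, 0.993% and 2.27% of the class, and cells with Mgp alone were 1.12%, 0.142% and 0% (0 of 220, which allows up to 1.36%). Mgp UMIs were rare in the class, and cells with one mostly had Bglap too. Of its cells with a Mgp UMI, 16 of 21, 7 of 8 and 5 of 5 also had a Bglap UMI, where 85.7%, 83.7% and 96.4% of all cells of the class did. The Ibsp class held Bglap alone in 63.8% of 596 cells, 38.4% of 492 and 51.4% of 292, and Mgp in any form in at most 4.87% of them. In the Rgs5 class at P15, Mgp alone was found in 48.5% of 462 cells and Bglap alone in 13.0%, but at 8 weeks the order was turned, with Mgp alone in 5.36% and Bglap alone in 55.6% of 261 cells. In the Pappa2 class at P15, 17.0% of 601 cells held both, 28.0% Mgp alone and 16.1% Bglap alone, the largest share of cells with both among the classes of at least 20 cells.

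Shares of cells have to be read against those of the Ptprc class. A Bglap UMI was found in 11.7% of 755 Ptprc cells, 13.9% of 208 and 37.5% of 16. The Hand2 class, with 4.72%, 10.9% and 32.1%, did not exceed these shares. The source of the Bglap UMIs in its cells was not tested. At P25 the summed level was above that of the Ptprc class, as given above, and 10 cells held 2361 of the 2765 UMIs. A Mgp UMI was found in 7.42%, 1.44% and 0% of the same Ptprc cells (0 of 16, which allows up to 18.8%). The Hand2 class exceeded this at P15 (22.7%, interval 17.5 to 28.7) and P25 (5.60%, interval 4.03 to 7.55), but the latter interval met that of the Ptprc class (0.298 to 4.16). Before thinning, a Mgp UMI was found in 47.5%, 13.1% and 18.2% of Hand2 cells.

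**Figure D3:**
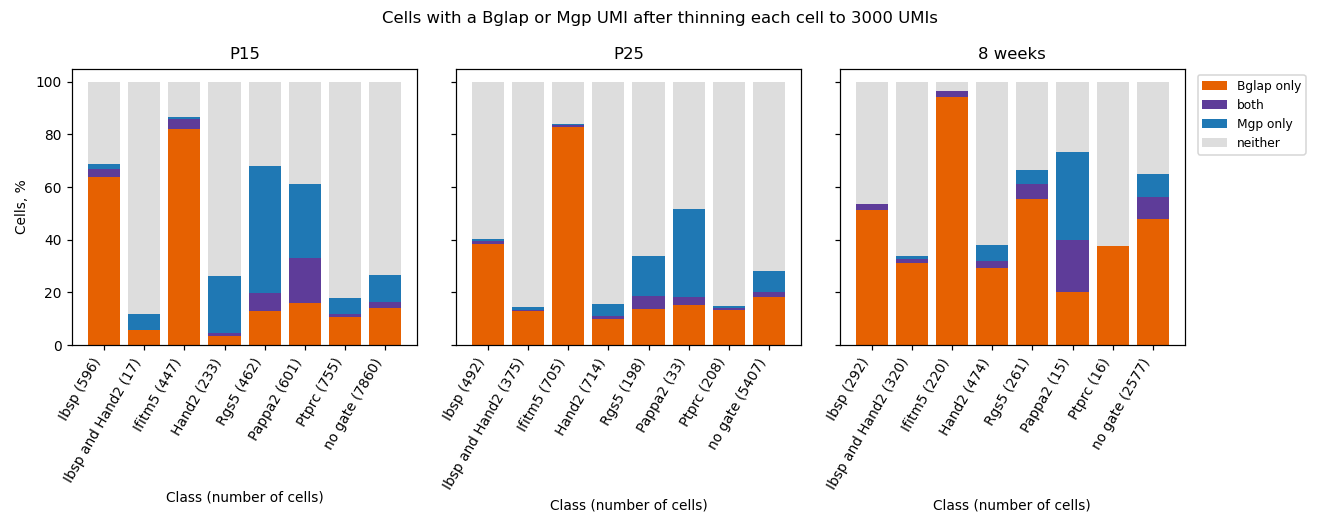
Share of cells (%) with a UMI of Bglap only, of both genes, of Mgp only or of neither, for each class (number of cells in parentheses) and library, after each cell was thinned to 3000 UMIs. Bglap-only cells fill 82.1% to 94.1% of the Ifitm5 class, and Mgp-only cells fill 48.5% of the Rgs5 class at P15.

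The cells with the most Bglap and those with the most Mgp shared few members. The 5% of cells with the most UMIs per 10000 were taken for each gene, which were 646, 449 and 260 cells. They shared 8, 5 and 0 cells (1.24%, 1.11% and 0%, the last of which allows up to 1.15%). The cut of either gene took 5% of all cells. Of the Bglap cells, the Ibsp class gave 192, 45 and 9, and the Ifitm5 class gave 187, 293 and 82. They were 32.0%, 8.77% and 2.63% of the Ibsp class and 41.1%, 40.9% and 35.5% of the Ifitm5 class. Beside the 5% of all cells, the share of the Ibsp class was thus not raised at 8 weeks. Over the same ages, ungated cells made up 28.9%, 21.4% and 59.2% of the Bglap cells. Of the Mgp cells, the Rgs5 class gave 199, 25 and 6, and the Hand2 class 18, 29 and 23. These were 41.4%, 12.6% and 2.26% of the Rgs5 class and 7.63%, 4.06% and 4.82% of the Hand2 class. Beside the 5% of all cells, the share of the Hand2 class was thus not raised at P25 and 8 weeks, nor that of the Rgs5 class at 8 weeks. Most of the Mgp cells were ungated, with 363, 374 and 224 cells (56.2%, 83.3% and 86.2%). Ungated cells made up 73.7%, 68.6% and 66.6% of all cells, so their share of the Mgp cells was below that at P15. The gates caught less of the highest Mgp cells than of the highest Bglap cells.

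The genes that the highest cells carried were chosen after their values had been seen and are given without a test. The ungated cells highest in Bglap (187, 96 and 154 cells) held 8347, 36620 and 44580 CPM of it. Their Mgp was 95.9 CPM at P15 and 11.7 CPM at 8 weeks, below the 454 and 694 CPM of the other ungated cells, but at P25 it was 482 CPM and thus above the 259 CPM of the others. They held 124, 602 and 563 CPM of Dmp1, a mineral-binding matrix protein, and 44.8, 246.3 and 186.9 CPM of Phex, a peptidase of phosphate control, where other ungated cells held 3.08, 6.29 and 11.4 CPM and 2.55, 2.24 and 17.0 CPM. At P25, all 449 cells highest in Bglap held 133 CPM of Dspp, the defining matrix protein of odontoblasts, against 0.34 CPM in the rest. The cells highest in Mgp, gated and ungated together, were led by different genes at each age. At P15 these were Rgs5, Mfap5 and Igfbp6 after Mgp itself, with 475 CPM of Mfap5, a microfibril protein, against 3.79 CPM in the rest. The ungated ones among these cells held 10.5 CPM of Rgs5 and other ungated cells 6.98 CPM, but the gate itself keeps Rgs5 low there. Of the other mural genes, Notch3 held 84.8 against 8.31 CPM and Pdgfrb 155.5 against 72.5 CPM, while Acta2 held 56.4 against 135.7 CPM. At P25 the leading genes were Mfap5, Clec3b and Pi16, with 668 CPM of Mfap5 against 12.8 CPM. At 8 weeks they were Prg4, Cilp and Myoc, with 621 CPM of Prg4 (lubricin) against 11.8 CPM.

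**Figure D4:**
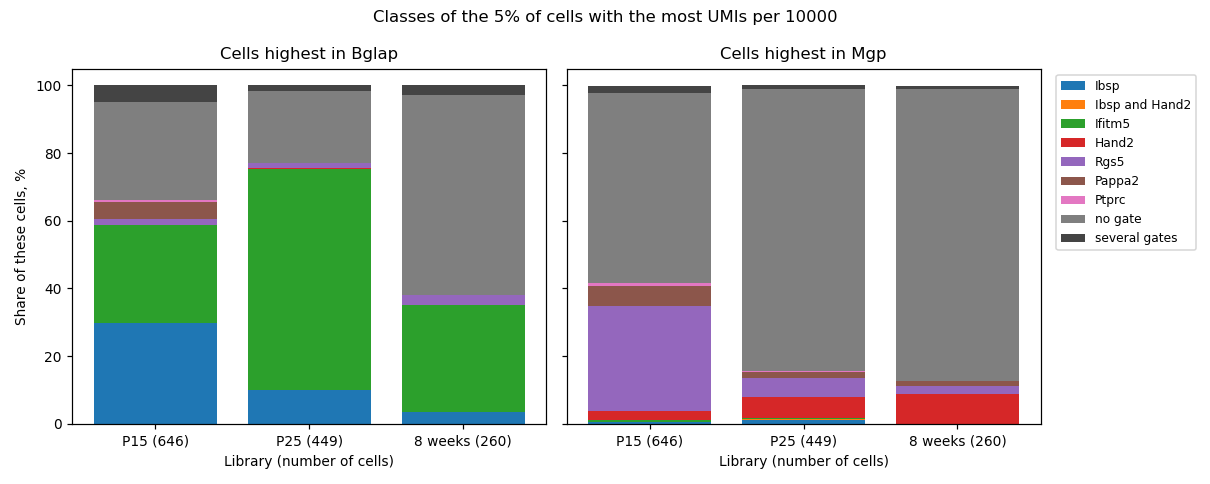
Classes (% of cells) of the 5% of cells with the most Bglap or Mgp UMIs per 10000 in each library. The Ifitm5 class gives 65.3% of the Bglap cells at P25, and ungated cells, 66.6% to 73.7% of all cells, give 56.2% to 86.2% of the Mgp cells.

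By time point, Bglap over all cells of a library was 864, 2517 and 4275 CPM, and Bglap2 was 704, 1536 and 4005 CPM. Mgp held 533, 198.9 and 443 CPM, with no single direction. Within the classes, Bglap was higher at each later age in the Ifitm5 class, the Rgs5 class and ungated cells but not in the Ibsp class, and Mgp was lower at P25 than at P15 in each class with at least 20 cells except the Pappa2 class. In the Rgs5 class the order of P15 and P25 rested on few cells, since without the 10 highest cells of each Bglap was 188 CPM at P15 and 151 CPM at P25. These are single libraries. The P25 matrix names another Cell Ranger version in its header than the other matrices and lists more genes, and whatever this brought to its counts cannot be told apart from its age.

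The share of Bglap among the UMIs of Bglap and Bglap2 moved with the class. It was 63.8%, 63.5% and 56.1% in the Ifitm5 class, and 45.6%, 49.0% and 49.8% in the Ibsp class. The Ifitm5 class was higher in all 3 libraries, and the 95% binomial intervals of the classes did not meet in any of them. These intervals take UMIs as independent, although at P15 10 of the 455 Ifitm5 cells held 47.4% of the Bglap UMIs. The median Ifitm5 cell held 23.1, 42.1 and 112.7 UMIs per 10000 of Bglap and 27.4, 34.0 and 116.9 of Bglap2. By these medians Bglap was the higher at P25 only, so the pooled share does not describe the typical cell. In the Rgs5 class the share was 56.8%, 56.7% and 39.6%, and in the Ptprc class 60.1%, 55.7% and 64.7%. How far the sequence likeness of the genes enters these shares was not tested.

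Because its reads can be shared with Bglap, Bglap2 is described, like Bglap, without a test. It held 3643, 2056 and 2720 CPM in the Ibsp class, 4943, 8874 and 21704 CPM in the Ifitm5 class and 38.4, 126.8 and 160.2 CPM in the Hand2 class. The Ifitm5 class was the highest of the 3 in each library and the Hand2 class the lowest, without overlap of the Hand2 class with either. In the Rgs5 class Bglap2 held 275, 716 and 3554 CPM, each value above those of the Hand2 class, and in the Pappa2 class 762 CPM at P15 and 320 CPM at P25. At 8 weeks its level in the Rgs5 class was also above that in the Ibsp class.

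The Rgs5 class of P15 was split by the level of Rgs5 at 20 UMIs per 10000. Bglap held 74.5 CPM in the 183 cells above and 483.5 CPM in the 298 cells below, Bglap2 held 91.4 and 352.7 CPM, and Mgp held 10310 and 1461 CPM. Within this class, the osteocalcin genes and Mgp thus stood in opposite order by the level of Rgs5. This order was not particular to osteocalcin. Gas6, Ggcx and Vkorc1 were also lower in the cells above, with 54.7, 13.5 and 99.1 CPM against 213.6, 19.15 and 214.4 CPM. The 74.5 CPM of Bglap lay below the 108.6 CPM of the Ptprc class of P15. In the whole Rgs5 class of P15, 10 cells held 49.5% of the Bglap UMIs. At P15 the log2 ratio of Mgp to the Hand2 class was 4.61 in the cells above, with the Hand2 class formed anew under this gate (244 cells). Over the whole Rgs5 class it was 3.56 at P15, with a mean of 1.38 ± 2.18 (SD, n = 3 libraries).

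Gas6, Ggcx and Vkorc1 were compared between classes with edgeR's quasi-likelihood test on 16 sums of at least 20 cells, with p-values adjusted over all 12513 genes tested (Benjamini-Hochberg). The libraries stood in as replicates although they differ in age, so that the spread includes the effect of age. None of the 3 genes passed an adjusted p under 0.05 by edgeR without the library as a block (0 of 3 in each of the 4 comparisons). At an unadjusted p under 0.05, 1 of 3 passed in each comparison, and the share of all genes at that threshold is not given here. At an adjusted p under 0.05, 5.82% of all genes passed for Ibsp against Hand2 and 4.99% for Ifitm5 against Ibsp. By the same measure, 6.4% passed for Rgs5 against Hand2 and 1.01% for Pappa2 against Hand2. With the library as a block, edgeR called 0, 2, 1 and 2 of the 3 in the same order, given below. There it called 1635, 1549, 2012 and 438 of all 12513 genes. DESeq2 called 1 of the 3, Gas6 for Rgs5 against Hand2, where it called 1186 of all 12947 genes.

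Gas6, like Mgp, had low values in the classes with Ibsp or Ifitm5, although no difference passed the test. It held 13.5, 28.8 and 13.6 CPM in the Ibsp class and 8.06, 11.3 and 14.0 CPM in the Ifitm5 class. The Hand2 class held 114.0, 29.1 and 39.7 CPM, the Rgs5 class 166, 301 and 431 CPM, and the Pappa2 class 73.8 and 563 CPM at P15 and P25. All Rgs5 values lay above all Hand2 values, whereas the Ibsp class met the Hand2 class at P25. The log2 differences were -1.59 ± 0.70 for Ibsp against Hand2 (adjusted p = 0.231), -0.59 ± 0.72 for Ifitm5 against Ibsp (0.770), 2.34 ± 0.70 for Rgs5 against Hand2 (0.0660) and 2.37 ± 0.76 for Pappa2 against Hand2 (0.179). Without P15 the Rgs5 difference passed with 3.46 (adjusted p = 0.000641), and with DESeq2 and fixed gates it passed as well (adjusted p = 0.0185 and 0.0275). Under the strict Rgs5 gate it was -0.42, from the Rgs5 sum of P15 alone against the Hand2 sums of P15, P25 and 8 weeks. Without P15 the Pappa2 difference passed too (4.05, adjusted p = 0.00233), on 33 cells of P25. Gas6 stood at 106.9 to 356.6 CPM in the Ptprc class, so that this class does not serve as a background for it.

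The enzymes of the vitamin K cycle were present in every class. Ggcx, the carboxylase, held 16.7 to 35.5 CPM in the Ibsp, Ifitm5, Hand2 and Rgs5 classes over the 3 libraries, against 4.69 to 10.1 CPM in the Ptprc class. Vkorc1, the reductase, held 144.7 to 374.7 CPM in the same classes, against 57.4 to 86.8 CPM in the Ptprc class. The range of either enzyme among these classes was thus narrow beside that of Bglap or Mgp. Between the Ibsp and Hand2 classes no difference passed, with log2 values of 0.31 ± 0.28 for Ggcx (adjusted p = 0.620) and 0.005 ± 0.35 for Vkorc1 (SE, adjusted p = 1).

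The Ifitm5 class, highest in Bglap, was higher than the Ibsp class in both enzymes in each library. Vkorc1 held 199.99, 351.2 and 331.6 CPM in the Ifitm5 class and 144.7, 230.2 and 210.0 CPM in the Ibsp class, folds of 1.38, 1.525 and 1.58. Ggcx held 24.4, 35.5 and 35.1 CPM against 21.5, 28.2 and 26.1 CPM, folds of 1.14, 1.26 and 1.34, of which the interval at P25 alone lay above 1 (1.07 to 1.48). Without a block the differences did not pass (log2 0.81 ± 0.35, adjusted p = 0.237 for Vkorc1, and 0.54 ± 0.28, adjusted p = 0.339 for Ggcx). With the library as a block they passed, with 0.77 ± 0.15 (adjusted p = 0.00829) and 0.50 ± 0.13 (adjusted p = 0.0280). Without P15 they passed without a block (adjusted p = 0.0133 and 0.0481). The block also brought Vkorc1 past the test in the Rgs5 class (0.53 ± 0.15, adjusted p = 0.0363) and in the Pappa2 class (0.71 ± 0.17, adjusted p = 0.0454) against Hand2, and Ggcx in the Pappa2 class (0.66 ± 0.16, adjusted p = 0.0479). More genes of any kind passed with the block, namely 1635 for Ibsp against Hand2, 1549 for Ifitm5 against Ibsp, 2012 for Rgs5 against Hand2 and 438 for Pappa2 against Hand2, where 728, 624, 801 and 127 passed without it. Under the strict Rgs5 gate, the Rgs5 sum of P15 stood alone against the Hand2 sums of P15, P25 and 8 weeks. The Rgs5 differences were then -1.20 for Vkorc1 and -0.82 for Ggcx.

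**Figure D5:**
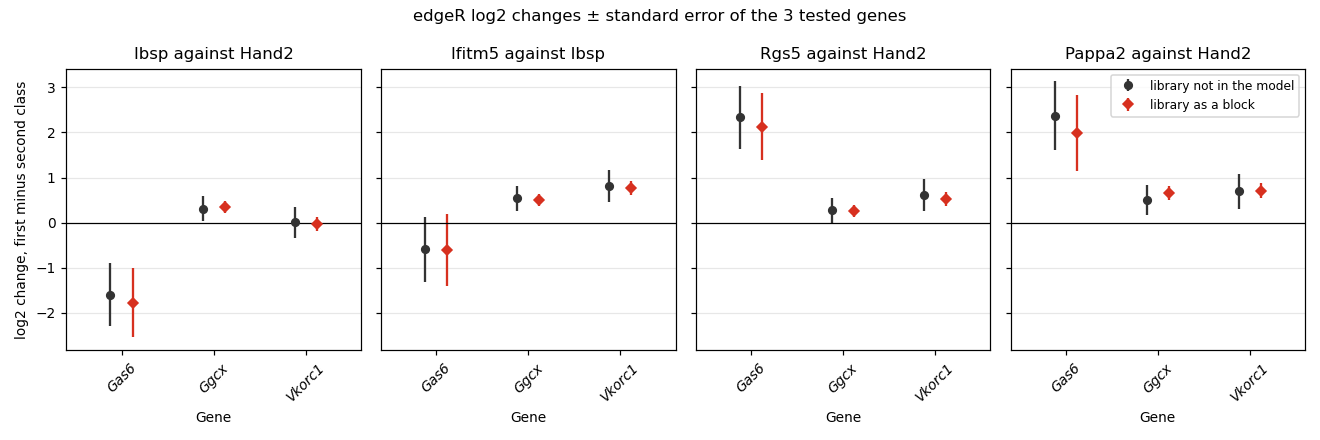
Log2 difference between classes (first minus second, ± SE) of Gas6, Ggcx and Vkorc1 in the 4 comparisons, from edgeR without (circles) and with (diamonds) the library as a block. Errors of Ggcx and Vkorc1 shrink with the block (0.35 to 0.15 for Vkorc1 in the Ifitm5 class), while those of Gas6 stay between 0.70 and 0.85.

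The list of 23 further genes of the vitamin K pathway (Gla proteins, enzymes and helpers, and receptors) held 15 genes with enough counts to be tested. In the Ibsp class, 2 of the 15 were higher than in the Hand2 class and 0 lower, where 3.65% of all genes were higher and 2.17% lower. Fam20c, a kinase of secreted proteins that phosphorylates matrix proteins, held 51.4, 34.9 and 44.7 CPM against 5.21, 10.1 and 10.4 CPM (log2 2.38 ± 0.30, adjusted p = 0.000880). Bglap3 held 188.9, 49.8 and 98.7 CPM against 3.04, 5.64 and 9.34 CPM (log2 4.28 ± 0.93, adjusted p = 0.0188). With the block, Pros1, Axl and Mertk were higher as well (5 of 15), where 921 of all 12513 genes were higher. Axl, a receptor of Gas6, held 96.6, 115.5 and 180.3 CPM in the Ibsp class against 26.1, 57.1 and 83.0 CPM (log2 1.36 ± 0.29, adjusted p = 0.0137 with the block). Mertk held 42.8, 22.7 and 25.04 CPM against 10.6, 8.86 and 15.1 CPM (log2 1.42 ± 0.30, adjusted p = 0.0103 with the block). Both receptors were also present in the Ptprc class, at 50.5 to 1119 CPM and 36.5 to 324 CPM, and the part of free RNA in these values was not tested. In the Rgs5 class 1 gene was higher, Pros1, the anticoagulant protein S and a ligand of Tyro3 and Mertk. It held 95.8, 121.8 and 113.0 CPM against 43.4, 48.2 and 49.9 CPM (log2 1.23 ± 0.27, adjusted p = 0.0194). At an adjusted p under 0.05, 4% of all genes were higher and 2.4% lower in this comparison. No gene of the list was lower there by edgeR (2 at an unadjusted p under 0.05, for which no share of all genes is given, and 0 with DESeq2). With the block Nqo1, an enzyme that reduces quinones, and Bglap3 rose and Prrg1, a membrane Gla protein, fell. Of all 12513 genes, 1152 were higher and 860 lower with the block.

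Between the Ifitm5 and Ibsp classes 0 of the 15 genes passed by edgeR, while 6 had an unadjusted p under 0.05 (2 higher, 4 lower), and DESeq2 called 0. At an adjusted p under 0.05, 3.16% of all genes were higher and 1.83% lower, and their share at an unadjusted p is not given here. Prrg1 was lower with the block (-0.68 ± 0.15, adjusted p = 0.0126), where 675 of all 12513 genes were lower. Between the Pappa2 and Hand2 classes 0 passed by edgeR, while 5 had an unadjusted p under 0.05 (4 higher, 1 lower). At an adjusted p under 0.05, 0.831% of all genes were higher and 0.184% lower by edgeR without the block. Their share at an unadjusted p is again not given. DESeq2 and the block each called Mertk higher, where they called 287 of 12947 and 295 of 12513 genes higher. The median log2 difference of the list was -0.018, -0.002, -0.085 and 0.106 in the 4 comparisons, beside -0.009, -0.021, 0.003 and -0.018 over all genes.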

How the data were processed

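Per the labels, cells were sorted for Pthrp-mCherry from mouse molars and sequenced with the 10x Chromium Single Cell 3' kit (v3.1). The authors deposited UMI counts per gene and cell from Cell Ranger, without normalization. The submitters' processing notes name version 6.1.2 and mm10, and the matrix of P25 names 6.0.1. The P25 table had 32293 genes and the others 22056, and 95.2% to 99.8% of UMIs lay in the shared identifiers. The study's P6 library was not analysed here.

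All deposited cells were kept, and likely doublets were removed only in an alternative. Cells were gated as stated in the report and UMIs were summed per library and class. Sums of at least 20 cells entered 1 fit in edgeR 4.0.16 (R 4.3.3; TMM, filterByExpr, robust quasi-likelihood test, 10 residual degrees of freedom), with DESeq2 1.42.0 as an alternative, both tested on simulated data. The sums with Ibsp and Hand2 at P15 (17 cells) and with Pappa2 at 8 weeks (16 cells) were dropped. Sums of a library come from the same pooled cells, and their deviations from class means correlated (0.297 to 0.663 over 6 pairs of 4 classes in each library), so the library paired them. Gates that use a minimum of 2 UMIs depend on depth. Intervals are Poisson for levels and Clopper-Pearson for shares, at 95%, and cover counting error only. Limits for a count of 0 use 3 counts. Named genes were the 6 members, up to 3 genes per direction of the vitamin K list past the test, and the 5 genes most correlated with Bglap and with Mgp. Genes named with the block or in the highest cells were chosen after their values had been seen. Bglap2 was fitted too, but its test is not reported, since it is not independent of Bglap. The members and lists were chosen with earlier results of these data known. Alternatives changed gates, cells (Scrublet in scanpy 1.11.5), depth, scaling, filter, test, block and libraries.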

Additional observations from a re-analysis of the deposited data

Results flagged for a closer look

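Of 30 ratios between classes (6 genes, 5 pairs), 2 had intervals on both sides of no change in different libraries. They were picked out because the direction differed between time points, and the difference was not tested, since each time point is 1 library. The log2 ratio of Mgp in the Rgs5 class to the Hand2 class was 3.56 in the P15 library, 1.39 in that of P25 and -0.80 in that of 8 weeks. Cells with at least 20 Rgs5 UMIs per 10000 numbered 183, 4 and 0 at these ages, and the part of this change in the result was not tested beyond the strict gate. The log2 ratio of Gas6 in the Pappa2 class to the Hand2 class was -0.63 at P15 and 4.28 at P25, where the Pappa2 class held 604 and 33 cells.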

How the results depend on the processing

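The log2 ratio of Bglap (Ifitm5 to Hand2, 7.23) lay between 6.66 (Ptprc level subtracted, which left only P25) and 8.08 (10 highest cells of each class left out, chosen after seeing the data) under the other settings and between 6.87 and 7.78 without a library. That of Mgp (-3.94) was -2.13 with 5% gates and -6.99 with the Ptprc level subtracted, which left only 8 weeks, lay between -4.83 and -3.38 otherwise (-4.43 without the 10 highest cells) and between -4.73 and -3.28 without a library. The Mgp ratio of Rgs5 to Hand2 was 4.61 with the strict gate, a value of P15 only, chosen after seeing the data. Genes called, in the order Ibsp against Hand2, Ifitm5 against Ibsp, Rgs5 against Hand2 and Pappa2 against Hand2, were 728, 624, 801 and 127. With the library as a replicate block they were 1635, 1549, 2012 and 438. The first, the second and the last were 361, 344 and 22 with fixed gates and 428, 215 and 72 in thinned cells, which tested 10451 genes. With 5% gates the first and the second were 431 and 274, and with DESeq2 the last was 396. Without a library they ranged from 9 to 520, 3 to 973, 3 to 1686 and 3 to 369, lowest without P25, or for Pappa2 without 8 weeks, and the cause was not tested beyond the fewer sums.

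Among the members, the log2 difference of Vkorc1 for Ibsp against Hand2, 0.005, changed sign in 9 settings and stayed near 0. It was -0.023 with thresholds doubled, -0.005 without likely doublets and with DESeq2, -0.028 in thinned cells, -0.006 with RLE factors, -0.001 with no low-count filter and -0.024 with the block. Without a library it ranged from -0.068 to 0.081, with -0.027 without P25. Gas6 for Ifitm5 against Ibsp was 0.25 with thresholds doubled. With the strict Rgs5 gate, which left P15 as the only Rgs5 sum, the fitted log2 differences of Bglap2, Gas6, Ggcx and Vkorc1 turned to -0.52, -0.42, -0.82 and -1.20 against Hand2. Of the other results on Gas6, Ggcx and Vkorc1, 142 kept their side of the threshold and 13 passed where the main value did not. The block changed no call of these genes beyond those in the report. All 24 shares of Bglap and Mgp without thinning were outside the intervals of the thinned shares.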
